A study of Macaca mulatta with 81 samples.

Results

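Blood T cells of rhesus macaques were compared between 3 allogeneic transplant recipients on combined Bela-Siro prophylaxis at nominal day 30 (Bela.Siro.D30) and 34 healthy animals that had not been transplanted (Healthy.Control). The Bela.Siro.D30 arrays were chosen by their titles and are 3 of the 81 arrays of the series. They came from animals 38 and 42, sampled at day 30 after hematopoietic cell transplant, and animal 49, sampled at day 29. The series follows T cells after transplant under several regimens against graft-versus-host disease, in which donor T cells attack the recipient. In all groups the cells carried CD3, the signalling part of the T cell receptor, and were taken from blood by flow sorting. Other groups set beside the day 30 arrays were the same 3 animals at day 14 (Bela.Siro.D14), the final samples of animals 38 and 42 (Bela.Siro.F, no day given), and 2 allogeneic recipients on Tac-Mtx at nominal day 30 (Tac.Mtx.D30, animals 20 and 19). Animal 49 also gave 1 of the 34 healthy arrays. All Bela.Siro and Tac.Mtx.D30 arrays carried batch label 3, as did 13 of the healthy arrays. Each group of recipients is small, and the number of arrays limits the precision.

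Bela is read here as belatacept and Siro as sirolimus; the labels give only the short forms. Belatacept is a fusion of the outer part of CTLA4 to an antibody tail. It covers CD80 and CD86 on antigen-presenting cells, so that CD28 on the T cell lacks its ligands. Sirolimus binds FKBP12 and blocks mTOR complex 1, a kinase complex that couples cytokine and nutrient signals to growth, glycolysis and translation. SMAD7, an inhibitory SMAD, is induced by TGF-beta and turns its receptor off again, and PCDH8 is a protocadherin, a calcium-dependent adhesion protein best known from neurons.

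All values are log2 probe set signals, a change is the log2 difference Bela.Siro.D30 minus Healthy.Control from the limma fit with its SE, and a gene passed the test at a Benjamini-Hochberg adjusted p under 0.05 over 11807 genes. Of these, 848 passed (7.18%), 500 higher in Bela.Siro.D30 (4.23%) and 348 lower (2.95%). At least 2-fold changes were 98 of the rises (0.83%) and 57 of the falls (0.483%). In 184 genes (1.56%) all 3 Bela.Siro.D30 arrays lay above all 34 healthy arrays, and in 25 genes (0.212%) they lay below; 153 and 25 of these had passed. The median change of all genes was 0.08.

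The 3 arrays were not alike. Animal 38 lay nearest to the healthy mean in 596 of the 848 genes that passed, animal 42 in 96 and animal 49 in 156. Over these genes the median distance from the healthy mean was 0.30 in animal 38, 0.67 in animal 42 and 0.83 in animal 49. The count of genes past the threshold was 1485 without animal 38, 306 without animal 42 and 234 without animal 49. The difference between the 3′ and 5′ actin probe sets, a measure of RNA quality, ran from 0.98 to 2.80 in Bela.Siro.D30, highest in animal 49, and from 0.43 to 3.83 in the healthy arrays. Its part in the result was not tested. In bulk RNA, fewer cells of a type and less RNA per cell cannot be told apart.

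**Figure D1:**
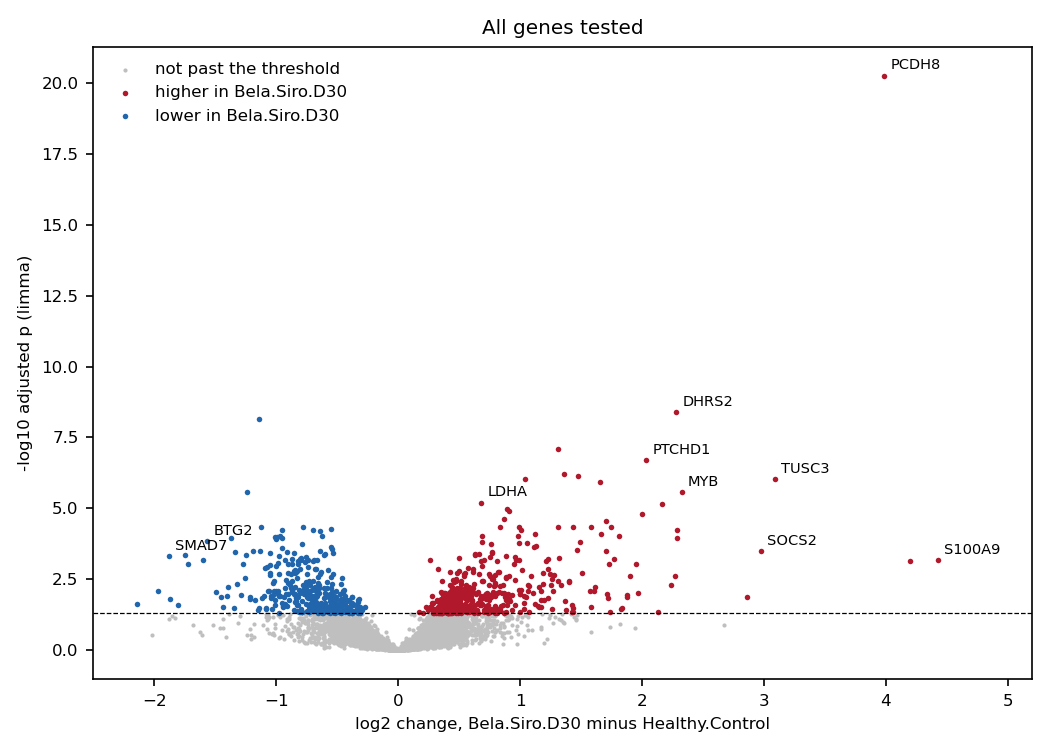
The log2 change between Bela.Siro.D30 and Healthy.Control (x axis) is plotted against the -log10 of the adjusted p (y axis) for 11807 genes, with the dashed line at an adjusted p of 0.05. PCDH8 stands at a change of 3.99, far above the other genes on the y axis.

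PCDH8 was at least 4.24-fold higher in Bela.Siro.D30 than in healthy animals, and SMAD7 was 3.68-fold lower. The PCDH8 signal was 7.47, 6.19 and 6.53 in animals 38, 42 and 49 at day 30, against a lowest, median and highest value of 2.35, 2.71 and 3.51 in Healthy.Control. The groups were apart, with every recipient above every healthy animal. The mean was 6.73 ± 0.67 (SD, n = 3) in Bela.Siro.D30 and 2.74 ± 0.22 (SD, n = 34) in Healthy.Control, a change of 3.99 ± 0.24 (adjusted p 5.69e-21). The healthy values lay below 4.65, the value used to filter low genes, and near 1.52, the lowest signal of any probe set on any array. The fold is therefore a lower bound, with each healthy array set to 4.65, and the log2 differences of PCDH8 are differences of measured signals. PCDH8 passed under all 15 alternative settings, with a change of 3.62 to 4.26.

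SMAD7 signals at day 30 were 8.01 in animal 38, 5.86 in animal 42 and 6.74 in animal 49, against 7.40, 8.76 and 9.48 as the lowest, median and highest healthy value. Animals 42 and 49 lay below every healthy array, and animal 38 lay inside the healthy range. The mean was 6.87 ± 1.08 (SD, n = 3) in Bela.Siro.D30 and 8.74 ± 0.43 (SD, n = 34) in Healthy.Control, a change of -1.88 ± 0.37 (adjusted p 0.000489). Without animal 42 the change was -1.38 and the adjusted p 0.065; it passed in the other 14 settings. In animal 49 the SMAD7 signal was 6.74 at day 29 and 9.13 in its own healthy array, and that of PCDH8 was 6.53 at day 29 and 2.67 in the healthy array.

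Across all 16 groups, the mean PCDH8 signal was highest in Bela.Siro.F (7.20 ± 0.52, n = 2) and Bela.Siro.D30 (6.73 ± 0.67, n = 3), whose values overlapped. FR104.Siro.F followed at 4.93 ± 0.85 (n = 4), then Bela.Siro.D14 at 4.17 ± 0.71 (n = 3) and FR104.Siro.D14 at 3.67 ± 0.76 (n = 4); FR104 is an antibody fragment against CD28. In the remaining groups the mean was 2.64 to 3.14, which includes Bela.F (3.09 ± 0.50, n = 3) and Siro.F (2.81 ± 0.14, n = 4), the final samples on either agent alone. For SMAD7 the healthy mean of 8.74 was the highest of the 16 groups. The lowest mean was 6.19 ± 1.11 in NoRx.F (n = 4), recipients with no prophylaxis. All errors here are SD, and these levels are a description without a test.

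Of 19 genes tested among TGF-beta receptors, SMADs and their inhibitors, ACVR1 rose (5.26%, against 4.23% of all genes) and SMAD7, TGFBR3 and TGIF1 fell (15.8%, against 2.95%). ACVR1, a receptor for activins and bone morphogenetic proteins, changed by 0.72 ± 0.19 (adjusted p 0.0116). TGFBR3, the co-receptor betaglycan, changed by -1.15 ± 0.36 (adjusted p 0.0385), and TGIF1, a repressor of SMAD targets, by -0.51 ± 0.16 (adjusted p 0.0347). The signal-carrying SMAD2, SMAD3 and SMAD4 were at 0.08, -0.16 and -0.13 with adjusted p of 0.37 or more, and the receptors TGFBR1 and TGFBR2 were at 0.12 and 0.23. The median of the list was -0.03, against 0.08 for all genes. Without animal 42 none of these 4 genes passed; without animal 49 ACVR1 and SMAD7 did. With the myeloid marker level, described below, as a covariate, SMAD7 alone of the 4 passed. Of the 4 protocadherins tested, PCDH8 rose and PCDH11X fell (25% each, against 4.23% and 2.95% of all genes, with 1 gene in each direction). PCDH11X was lower by 0.50 ± 0.16 on the probe set used (adjusted p 0.0409). Its other probe sets, with mean signals below 4.65, were at 0.13 and 0.09. Its call was lost without animal 42 or 49 and with the covariate. It was also lost in batch 3 alone, over all probe sets and with the mean of the probe sets. PCDH10 was at 0.03 and PCDH12 at 0.02.

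The 10 largest rises were S100A9, S100A8, PCDH8, TUSC3, SOCS2, VCAN, MYB, NFIL3, ANXA3 and DHRS2, by 2.28 to 4.43. In 7 of the 10, all but S100A9, S100A8 and VCAN, every Bela.Siro.D30 array lay above every healthy array. TUSC3, a subunit of the complex that attaches glycans to new proteins, had signals of 6.95, 7.05 and 7.87 at day 30, against 3.06, 4.16 and 6.10 as the healthy lowest, median and highest. It rose at least 5.79-fold with low healthy arrays set to 4.65 (measured difference 3.09 ± 0.43, adjusted p 9.08e-07); its other 2 probe sets changed by 1.86 and 0.29. SOCS2, a feedback inhibitor induced by cytokines through STAT5, had signals of 10.19, 9.63 and 8.86 at day 30, against 4.18, 6.50 and 8.57 in healthy animals. The lowest recipient, animal 49, was just above the highest healthy animal, and the change was 2.98 ± 0.57 (adjusted p 0.000311).

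MYB, a transcription factor of blood progenitors and developing T cells, had signals of 8.82, 9.96 and 9.44 at day 30, against 5.55, 7.08 and 7.83 in healthy animals. It rose 5.02-fold (2.33 ± 0.34, adjusted p 2.72e-06), and its other probe set by 2.02. NFIL3, a transcription factor induced by cytokines such as interleukin 3, rose 4.89-fold (2.29 ± 0.39, adjusted p 5.75e-05), with signals of 10.32, 10.25 and 9.77 at day 30 and a healthy maximum of 8.87. DHRS2, a short-chain dehydrogenase, rose by 2.28 ± 0.26 (adjusted p 4.08e-09), and ANXA3, an annexin that binds membrane lipids, by 2.29 ± 0.41 (adjusted p 0.000107). All 3 arrays were clear of the healthy range in each of these 4 genes. The 10 rises passed without animal 38; without animal 42 or 49 they passed apart from VCAN (2.28 and 2.33, adjusted p 0.19 and 0.199).

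**Figure D2:**
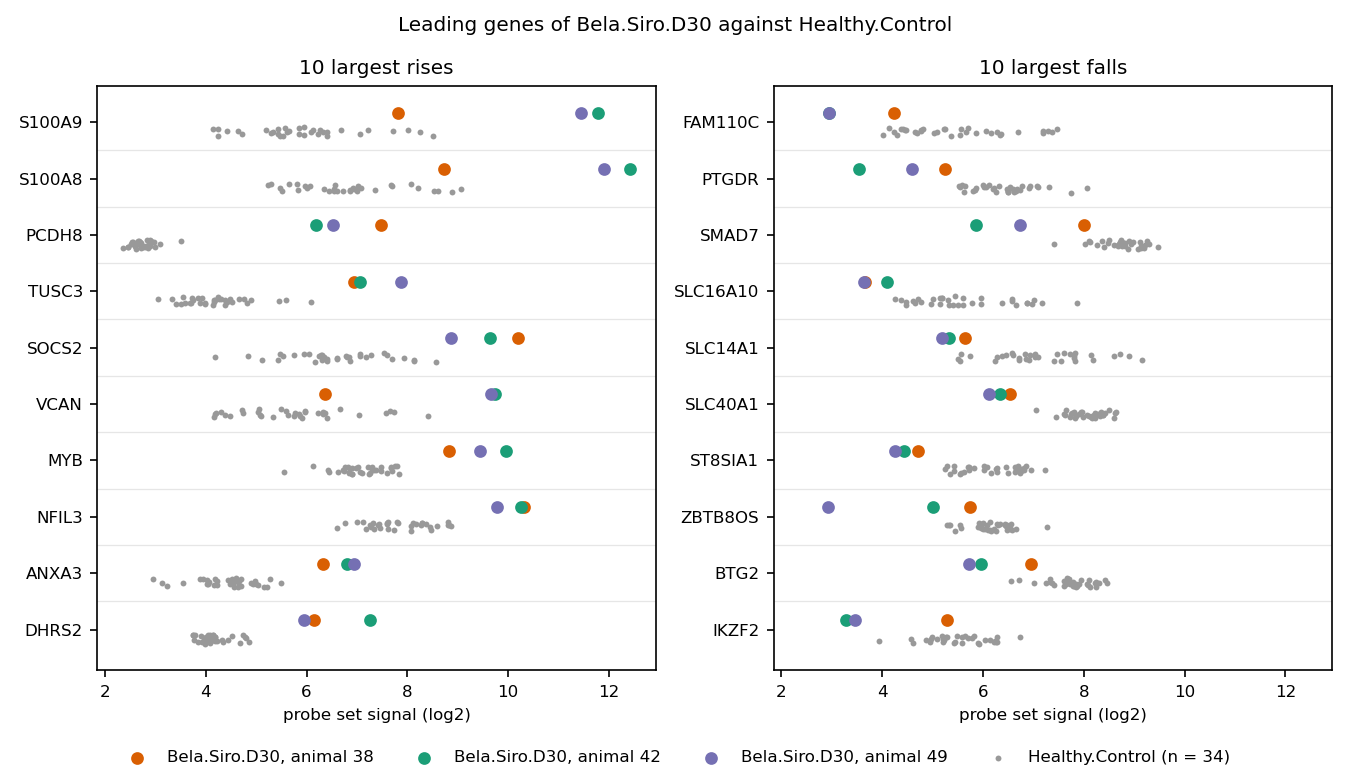
Probe set signals (log2, x axis) of the 10 largest rises and the 10 largest falls are drawn per array, with the 3 Bela.Siro.D30 animals as coloured points above the 34 Healthy.Control arrays in grey. The recipients lie clear of the healthy range in 7 of the 10 rises and 4 of the 10 falls, and animal 38 is the closest to it in SMAD7, S100A8 and S100A9.

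The 10 largest falls were FAM110C, PTGDR, SMAD7, SLC16A10, SLC14A1, SLC40A1, ST8SIA1, ZBTB8OS, BTG2 and IKZF2, at -1.49 to -2.14. SLC40A1, which encodes the iron exporter ferroportin, had signals of 6.53, 6.34 and 6.12 at day 30, against 7.05, 8.13 and 8.64 in healthy animals. All 3 recipients were below all healthy animals, the change was -1.74 ± 0.34 (adjusted p 0.000445), and its other probe set changed by -2.09. ST8SIA1, the sialyltransferase that makes the ganglioside GD3, was at least 2.88-fold lower by the same floor, with signals of 4.72, 4.43 and 4.26 at day 30 against 5.24, 6.26 and 7.23 in healthy animals. The groups were again apart (-1.72 ± 0.36, adjusted p 0.000932).

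BTG2, which restrains the cell cycle and helps keep T cells quiescent, had signals of 6.95, 5.95 and 5.73 at day 30, against 6.56, 7.79 and 8.47 in healthy animals. Animal 38 overlapped the healthy range, and the change was -1.57 ± 0.28 (adjusted p 0.00014). PTGDR, a receptor for prostaglandin D2, and SLC16A10, a carrier of aromatic amino acids, also lay below the healthy range in all 3 arrays, by -1.97 ± 0.50 (adjusted p 0.00789) and -1.87 ± 0.52 (adjusted p 0.0161). Their other probe sets changed less, by -0.35 and -0.40. IKZF2, the transcription factor Helios of regulatory T cells, changed by -1.49 ± 0.38 (adjusted p 0.00913; other probe set -0.51). SLC40A1, ST8SIA1 and BTG2 passed whichever Bela.Siro.D30 array was left out. Without animal 42, 6 falls did not pass (FAM110C, IKZF2, PTGDR, SLC14A1, SLC16A10 and SMAD7, at -1.13 to -2.02). Without animal 49 also 6 did not (the same, with ZBTB8OS at -0.78 in place of SMAD7). With the myeloid marker level as a covariate SMAD7, SLC40A1, ST8SIA1 and BTG2 passed, and FAM110C, IKZF2, PTGDR, SLC14A1, SLC16A10 and ZBTB8OS did not (adjusted p 0.0617 to 0.326). In animal 49 all 20 genes moved the same way relative to its own healthy array. These genes were chosen with animal 49 on that side of the healthy mean, which includes this array, so the agreement was nearly fixed in advance.

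The largest rises included monocyte genes, although the cells were sorted on CD3. S100A8 and S100A9 encode calprotectin, an abundant protein of monocytes and neutrophils. The S100A8 signal was 8.72, 12.42 and 11.91 in animals 38, 42 and 49, against 5.22, 6.79 and 9.06 in healthy animals, and S100A9 was 7.81, 11.78 and 11.45, against 4.14, 5.85 and 8.51. Animals 42 and 49 were far above the healthy range and animal 38 was inside it. The changes were 4.20 ± 0.86 (adjusted p 0.000736) and 4.43 ± 0.90 (adjusted p 0.000669). VCAN, the proteoglycan versican, and FCN1, the lectin ficolin 1, rose by 2.86 ± 0.78 (adjusted p 0.0136) and 2.13 ± 0.69 (adjusted p 0.0441). Without animal 42 or 49 neither passed. The other probe sets of VCAN rose by 1.15 to 2.76, and that of FCN1 was at 0.11. FCN1 also did not pass with no filter, over all probe sets or in batch 3 alone.

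Of the 9 monocyte and myeloid markers tested, these 4 rose (44.4%, against 4.23% of all genes), with a median of 1.94. LYZ (1.94, adjusted p 0.17), CD14 (0.64, adjusted p 0.24), CSF1R (0.35), S100A12 (0.27) and CD68 (0.25) did not pass. The mean signal of the 9 markers was 6.58, 8.53 and 8.38 in animals 38, 42 and 49 at day 30, against 4.80, 5.90 and 7.62 as the healthy lowest, median and highest. With this mean as a covariate, 103 genes passed, 60 higher and 43 lower, of which 102 were among the 848. PCDH8 then changed by 4.01, TUSC3 by 3.10, SOCS2 by 2.62 and SMAD7 by -1.55 (adjusted p 0.0414), and all passed. S100A8, S100A9, VCAN and FCN1 are among the 9 markers, so their drop under the covariate (to between -0.37 and 1.12) follows from its construction. Of 84 named genes past the threshold, 23 passed with the covariate, 59 no longer passed in the same direction, and VCAN and FCN1 changed sign without passing. The 23 were the 7 largest rises other than S100A8, S100A9 and VCAN, the 4 falls named above, PTCHD1, PGAP1, NPDC1, LDHA, SESN3, CDKN2D, IL12RB2, IRF7, EDEM3, MKLN1, TENT5A and ZNF397.

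Few markers of other cells passed, which with 3 recipients does not show that their levels were unchanged. Changes ran from -0.76 to 0.97 in NK cell markers (median -0.61), -0.59 to -0.04 in platelet markers and -0.68 to 0.05 in erythroid markers. None of 7 NK cell markers, 6 platelet markers or 3 erythroid markers passed limma's test (0, 1 and 0 at an unadjusted p under 0.05, a level that 21.5% of all genes reached). FCRL1 was the 1 of 6 B cell markers that rose (0.62 ± 0.15), while MS4A1, which encodes CD20, was at -0.91 (adjusted p 0.21). XBP1, a factor of secretory cells, was the 1 of 5 plasma cell markers that rose (0.59 ± 0.15); both calls were lost without animal 42 or 49, and with the covariate. The share of all genes that rose was 4.23%. The T cell markers CD5 and TRAT1 were at -0.07 and 0.20, with a mean signal of 10.93 to 11.50 in Bela.Siro.D30 and 10.56 to 11.59 in Healthy.Control. CD4, CD8A and CD8B were at -0.01, -0.30 and -0.21, and none of these 5 T cell genes passed limma's test (0 at an unadjusted p under 0.05).

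**Figure D3:**
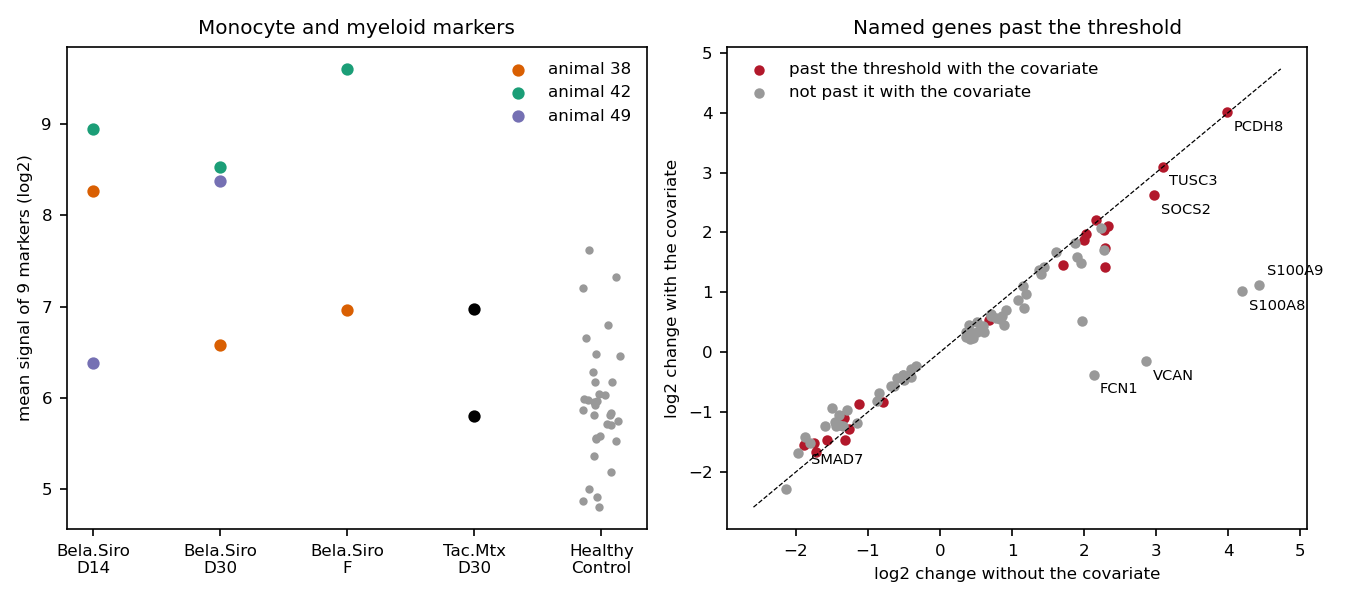
Left, the mean signal (log2) of 9 monocyte and myeloid markers per array, with Bela.Siro animals in colour, Tac.Mtx.D30 in black and Healthy.Control in grey. Right, the log2 change of 84 named genes without (x axis) and with (y axis) that mean as a covariate; PCDH8, TUSC3 and SOCS2 stay near the diagonal; the 4 labelled monocyte genes are among the 9 markers, so their drop follows from the covariate's construction.

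Genes of cytokine signalling were among those that rose. Of 11 cytokine feedback inhibitors tested, SOCS2, CISH and SOCS3 rose (27.3%, against 4.23% of all genes). CISH, like SOCS2 a target of STAT5, had signals of 9.97, 9.63 and 10.29 at day 30, against 7.68, 8.91 and 9.96 in healthy animals (1.15 ± 0.34, adjusted p 0.028). Animals 38 and 49 were just above the healthy maximum. SOCS3 rose by 0.92 ± 0.26 (adjusted p 0.018). SOCS1 was lower on the probe set used (-0.59 ± 0.17, adjusted p 0.0228), but its 5 probe sets disagreed: 3 were higher by 0.81 to 1.65 and the other at -0.85, so its direction is not settled. JAK2, a kinase of cytokine receptors, was the 1 of 13 members of the gamma chain, JAK and STAT list that rose (0.78 ± 0.20, adjusted p 0.00902). The call of CISH was lost without any 1 of the 3 arrays (adjusted p 0.053, 0.0659 and 0.232 without animals 38, 42 and 49), that of SOCS3 without 38 or 42, and those of SOCS1 and JAK2 without 42 or 49. SOCS2 alone of these genes passed with the myeloid covariate.

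Of 21 genes of the mTOR pathway and its inhibitors, SESN3 rose and RPS6KB1 fell (4.76% each, against 4.23% and 2.95% of all genes, shares near the background). SESN3, a stress-induced inhibitor of mTOR complex 1 and a FOXO target, had signals of 5.82, 7.13 and 7.32 at day 30, against 4.29, 5.09 and 5.62 in healthy animals. All 3 recipients were above the healthy range (1.71 ± 0.32, adjusted p 0.000311), and it passed without any 1 array; its other 4 probe sets changed by 0.10 to 1.19. RPS6KB1, the S6 kinase, changed by -0.40 ± 0.12 on the probe set used (adjusted p 0.0383), and by -0.11 and -0.12 on its others. It was at -0.10 without animal 49 and had an adjusted p of 0.0584 without animal 42. Its call was lost in 7 of 15 alternative settings, among them batch 3 alone and the mean of the probe sets. DDIT4, another mTOR inhibitor, was at 1.32 ± 0.48 (adjusted p 0.0808). Of 8 genes of the CD28 family and its ligands none passed limma's test (2 at an unadjusted p under 0.05, against 21.5% of all genes), with CD28 at -0.06 ± 0.27 and CTLA4 at 0.77 ± 0.36. Among 12 calcineurin and NFAT genes NFATC2, NFATC3 and DYRK1A fell (25%, against 2.95%), by 0.68 ± 0.14, 0.63 ± 0.14 and 0.33 ± 0.09. The 3 other probe sets of NFATC3 fell by 0.74 to 1.10. Those of NFATC2 were at -0.42, -0.36 and 0.09 and those of DYRK1A at -0.49 and -0.31, none past the threshold over all probe sets. Without animal 49 NFATC2 was at -0.26, and without animal 42 NFATC3 had an adjusted p of 0.0716 and DYRK1A of 0.348 (0.0539 without animal 38). SESN3 passed with the myeloid covariate (adjusted p 0.0257) and RPS6KB1, NFATC2, NFATC3 and DYRK1A did not (0.439, 0.0616, 0.053 and 0.302).

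Among metabolic genes, glycolysis enzymes had the most calls. Of 16 glycolysis enzymes LDHA, GAPDH, HK1 and ENO1 rose (25%, against 4.23% of all genes), all by less than 2-fold, and the list median was 0.30 against 0.08 for all genes. LDHA, which turns pyruvate into lactate, had signals of 12.77, 12.82 and 12.61 at day 30, against 11.69, 12.04 and 12.33 in healthy animals (0.68 ± 0.10, adjusted p 6.23e-06). Each of the 4 lay above the healthy range in all 3 arrays. LDHA passed whichever array was left out, and without animal 42 it was the only 1 of the 4 that passed. GAPDH changed by 0.45 and 0.46 on its 3′ control probe sets, by -0.01 and 0.08 on the middle ones and by -0.21 on the 5′ one. Its remaining probe set was at 0.33. The other probe sets of HK1 were at -0.33, -0.14 and 0.18, so the rise of both genes depends on the probe set. With the mean of all probe sets of a gene GAPDH was at 0.18 and HK1 at 0.03. LDHA passed with the myeloid covariate (0.54, adjusted p 0.00314), and GAPDH, HK1 and ENO1 did not. The list's mean signal was 9.60, 9.79 and 9.64 at day 30, against a healthy maximum of 9.58. Of 14 oxidative phosphorylation genes UQCRQ and NDUFA4 rose, by 0.46 ± 0.12 and 0.39 ± 0.11, and of 12 cholesterol synthesis genes FDFT1 rose by 0.36 ± 0.09. Of 15 ribosomal proteins RPS16 and RPL19 rose, by 0.89 ± 0.25 and 0.51 ± 0.15, and of 15 translation factors EIF3A fell by 0.84 ± 0.18. These are 14.3%, 8.33% and 13.3% of their lists for the rises, against 4.23% of all genes, and 6.67% for the fall, against 2.95%. The other probe sets of EIF3A were at -0.59, 0.00 and 0.43, so its direction is not settled. Those of RPS16 were at -0.08 to 0.01, with mean signals below 4.65 in both groups. None of these 6 genes passed with the myeloid covariate. Leaving out animal 49 ended the call of EIF3A (-0.32), leaving out animal 42 that of UQCRQ, and leaving out either those of NDUFA4, FDFT1, RPS16 and RPL19.

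Genes of resting T cells that passed were lower. Of 11 naive and quiescent T cell genes BTG2, FOXP1 and KLF2 fell (27.3%, against 2.95% of all genes) and none rose. FOXP1, which maintains quiescence, and KLF2, a factor for exit from lymphoid tissue, changed by -0.51 ± 0.14 (adjusted p 0.0162) and -0.41 ± 0.13 (adjusted p 0.033). FOXO1, which drives KLF2, changed by -0.87 ± 0.20 (adjusted p 0.00348), with signals of 9.79, 9.98 and 8.06 at day 30 against 9.57, 10.09 and 10.90 in healthy animals. Only animal 49 was below the healthy range, and without it the change was -0.26. FOXP1 and KLF2 did not pass without animal 49 either (-0.38 and -0.34), nor KLF2 without animal 42. With the myeloid covariate BTG2 passed, and FOXP1, KLF2 and FOXO1 did not (adjusted p 0.276, 0.155 and 0.0612). TCF7 and CCR7, genes of naive and memory cells, were at -0.25 ± 0.19 and -0.16 ± 0.39, neither past the threshold, and CDKN2D, a cell cycle inhibitor, rose by 0.71 ± 0.14 (adjusted p 0.000642). IL7R has no probe set in the table of names.

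Effector and proliferation genes did not pass as a rule. None of 13 cytotoxic granule genes passed limma's test (1 at an unadjusted p under 0.05, against 21.5% of all genes), with GZMB at 0.08 ± 0.45 and IFNG at 0.68 ± 0.53. The mean signal of the list was 10.15 in animal 38, 8.90 in animal 42 and 9.11 in animal 49, against 8.77, 9.73 and 10.32 as the healthy lowest, median and highest. Animal 38 was in the upper part of the healthy range and the others in the lower part. Without animal 38, 2 of the 13 fell, in a fit where 542 of all 11807 genes did. MCM2, a replication factor, was the 1 of 14 cell cycle genes that rose (7.14% of the list, against 4.23% of all genes). It changed by 0.83 ± 0.26 (adjusted p 0.0373), a call lost without any 1 of the 3 arrays and with the covariate. MKI67, a marker of dividing cells, was at 0.53 ± 0.34 (adjusted p 0.376). The median of the cell cycle list was 0.48, against 0.08 for all genes.

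Among 10 Th1 and effector regulators IL18RAP rose and IL12RB2 fell (10% each, against 4.23% and 2.95% of all genes, with 1 gene in each direction). IL18RAP changed by 1.44 ± 0.44 (adjusted p 0.0325), a call lost without animal 38 or 49. IL12RB2, a chain of the interleukin 12 receptor, was lower on the probe set used (-1.13 ± 0.21, adjusted p 0.000311; -0.76 without animal 49, adjusted p 0.0877), but its other 3 probe sets ran from -1.20 to 0.86. TBX21, the Th1 factor T-bet, was at -0.95 ± 0.44 (adjusted p 0.194). Of 11 Th17 and Tc17 genes IL26 alone rose (9.09%, against 4.23% of all genes), by 1.37 ± 0.39 (adjusted p 0.0177, lost without animal 38 or 42). IL17A and IL23R were at 0.27 ± 0.16 and 0.28 ± 0.33, neither past the threshold. With the myeloid covariate IL12RB2 passed (adjusted p 0.0468), and IL18RAP and IL26 did not (0.172 and 0.112).

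Of 12 regulatory T cell genes ENTPD1, TNFRSF4 and LRRC32 rose (25%, against 4.23% of all genes) and IKZF2 fell (8.33%, against 2.95%), while FOXP3, the factor that defines these cells, was at 0.02 ± 0.16 (adjusted p 0.963). FOXP3 signals were 4.80, 4.95 and 4.91 at day 30 against 4.31, 4.89 and 5.35 in healthy animals. TNFRSF4, the costimulatory receptor OX40, rose by 1.08 ± 0.26 (adjusted p 0.00551), with all 3 arrays above the healthy range; without animal 42 the adjusted p was 0.0986. LRRC32, which holds latent TGF-beta on the cell surface, rose by 0.40 ± 0.13 (adjusted p 0.044; lost without animal 38 or 49). With the myeloid covariate none of these 4 calls held (ENTPD1 0.388, TNFRSF4 0.14, LRRC32 0.123 and IKZF2 0.326 as adjusted p). Of 11 inhibitory receptors LAG3 and ENTPD1 rose (18.2%, against 4.23%). LAG3, which binds MHC class II, had signals of 8.44, 8.61 and 8.40 at day 30, against 6.48, 7.30 and 7.84 in healthy animals. The groups were apart (1.20 ± 0.34, adjusted p 0.0173), yet neither LAG3 nor ENTPD1 (1.17 ± 0.33) passed without animal 42 or 49, or with the covariate.

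Of 14 type I interferon response genes IFI27 and ISG15 rose (14.3%, against 4.23% of all genes), by 2.24 ± 0.53 (adjusted p 0.0048; 0.0834 without animal 49) and 1.40 ± 0.33 (adjusted p 0.00393). With the myeloid covariate neither passed (adjusted p 0.0734 and 0.0664). IRF7 was lower on the probe set used (-0.79 ± 0.16), but its other probe set was higher by 0.90, so its direction is not settled. BCL2L11, which encodes the death factor BIM, and BAX were the 2 of 10 BCL2 family genes that rose (20%), by 0.70 ± 0.22 and 0.52 ± 0.17. BAX and DDB2 (0.55 ± 0.17) were the 2 of 14 p53 target genes that rose (14.3%). ITGA2, the collagen-binding integrin chain, rose by 1.61 ± 0.41 and ICAM2 by 0.87 ± 0.29, as the 2 of 12 integrins and selectin that rose. The share over all genes was 4.23%. Without animal 42 BCL2L11, BAX, DDB2 and ICAM2 did not pass, and without animal 49 BCL2L11, BAX, DDB2, ITGA2 and ICAM2 did not; none of the 5 passed with the myeloid covariate. BAX did not pass in 9 of 15 alternative settings, among them the animal as a random replicate block (adjusted p 0.0552), and ICAM2 did not in 11 of 15. No member of the T cell receptor signalling (14), chemokine receptor (13) or immediate early (13) lists passed limma's test, and 3, 5 and 1 had an unadjusted p under 0.05, against 21.5% of all genes.

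**Figure D4:**
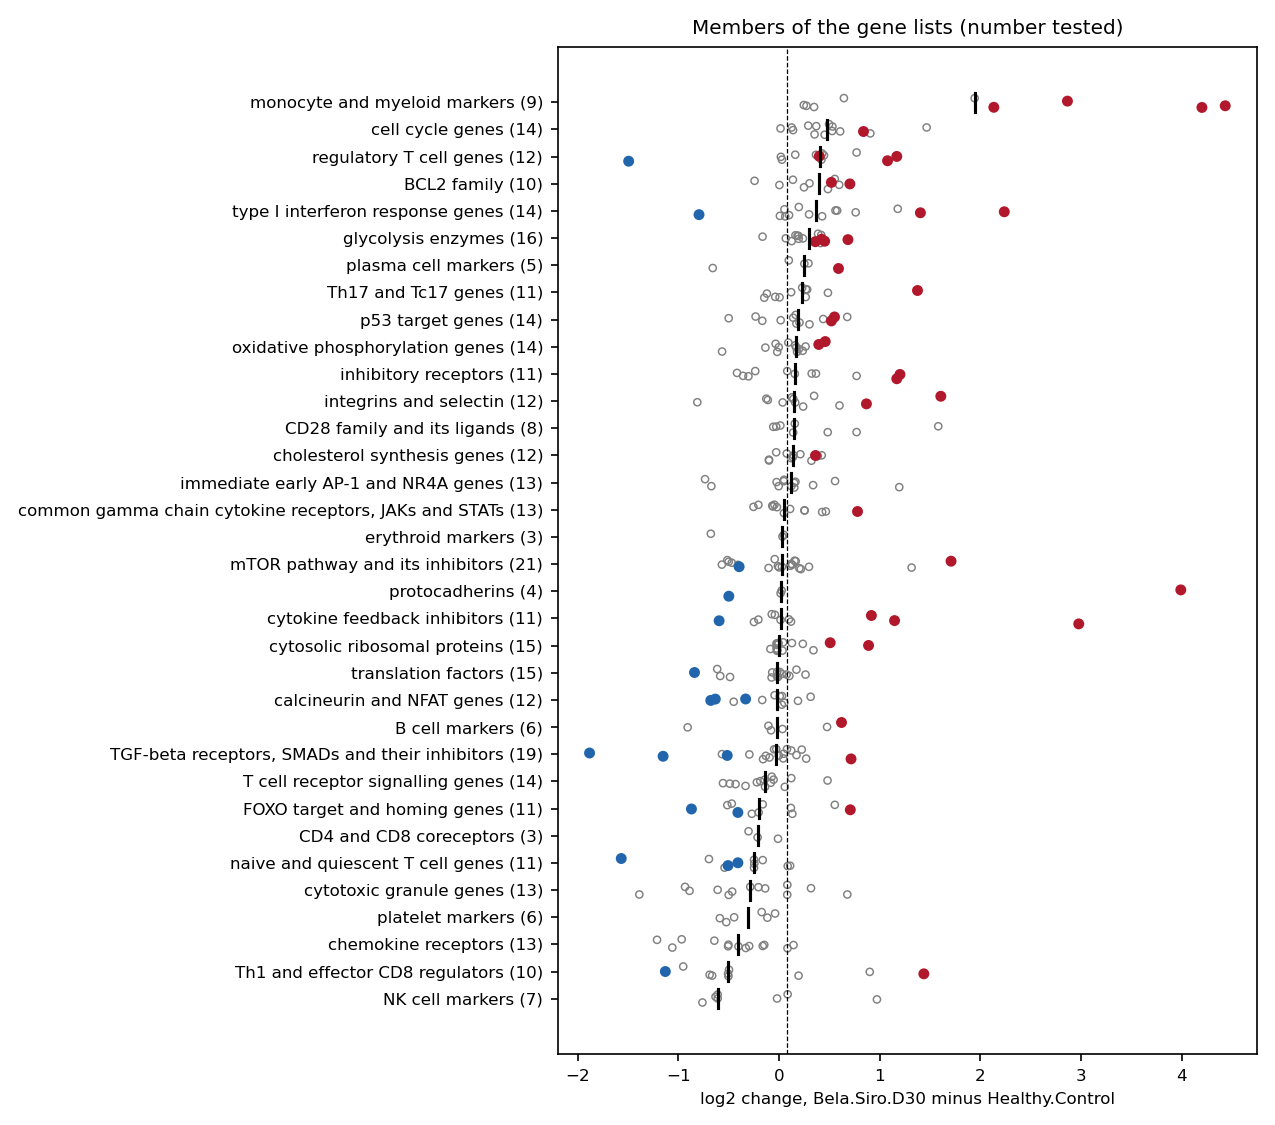
Each point is a gene of a list at its log2 change between Bela.Siro.D30 and Healthy.Control (x axis); filled red and blue points passed the test, the short black bar is the list median and the dashed line the median of all genes, 0.08. The number of genes tested stands beside each list, and the monocyte and myeloid list has the highest median, 1.94.

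Against day 14 in the same animals, PCDH8 was the single gene of 11807 that passed (0.00847%), and it was higher at day 30. Its signal in animals 38, 42 and 49 was 7.47, 6.19 and 6.53 at day 30, against 4.67, 3.35 and 4.48 at day 14. Each animal was higher at day 30, with no overlap, and the measured difference was 2.56 ± 0.31 (adjusted p 9.56e-08), or at least 4.22-fold with low day 14 arrays set to 4.65. No gene was lower by limma's test, while 65 were higher and 193 lower at an unadjusted p under 0.05 (2.19% of all genes together). With the animal as a fixed replicate block over these 6 arrays, 3 genes passed: PCDH8, ADAM12 (2.10, adjusted p 0.0228) and CHN1 (1.75, adjusted p 0.0436). CHN1, a Rac GTPase-activating protein, had signals of 8.52, 7.79 and 7.57 at day 30, against 6.66, 5.86 and 6.10 at day 14. Without the animal 38 array of day 30, 89 genes passed, 87 of them lower at day 30. The mean signal of the monocyte and myeloid markers was 6.58, 8.53 and 8.38 in animals 38, 42 and 49 at day 30, against 8.27, 8.95 and 6.38 at day 14. It was lower at day 30 in animals 38 and 42 and higher in animal 49, while PCDH8 was higher in each. In a fit of only these 2 groups, which shares no spread with the rest, none passed.

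Against the final samples, 3 genes passed (0.0254%), and all were lower at day 30. IL17A, the signature cytokine of Th17 cells, had signals of 4.50, 3.95 and 4.15 in animals 38, 42 and 49 at day 30, against 5.96 and 5.76 in animals 38 and 42 at the final sample. The groups were apart (-1.66 ± 0.23, adjusted p 6.2e-06), and the day 30 values were near the healthy range of 3.57 to 4.22. IL22, another cytokine of these cells, was at 4.32, 4.24 and 4.00 at day 30, against 4.78 and 6.26 at the final sample (-1.33 ± 0.21, adjusted p 0.000241). Its other probe set was higher at day 30 than in healthy animals by 1.58, where the probe set used was at 0.26. CXCL8, a chemoattractant of neutrophils, was at 4.66, 4.45 and 4.68 at day 30, against 4.78 and 8.46 at the final sample (-2.02 ± 0.41, adjusted p 0.0246). All day 30 signals of IL17A and IL22 lay below 4.65, the value used to filter low genes. Those of CXCL8 lay near it. The log2 differences of these 3 genes are differences of measured signals, with low arrays not raised to 4.65. The final array of animal 42 was high in CXCL8 and IL22; without it they were at -0.18 and -0.59 and did not pass. In that array the mean of the monocyte and myeloid markers was 9.60, above all day 30 arrays; with that mean as a covariate the 3 genes still passed, and 1 more did. CXCL8 also did not pass without the day 30 array of animal 42 or 49 (adjusted p 0.143 and 0.0975). Without the animal 38 array of day 30, 150 genes passed. PCDH8 was at -0.47 ± 0.35 against the final samples (adjusted p 0.992).

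**Figure D5:**
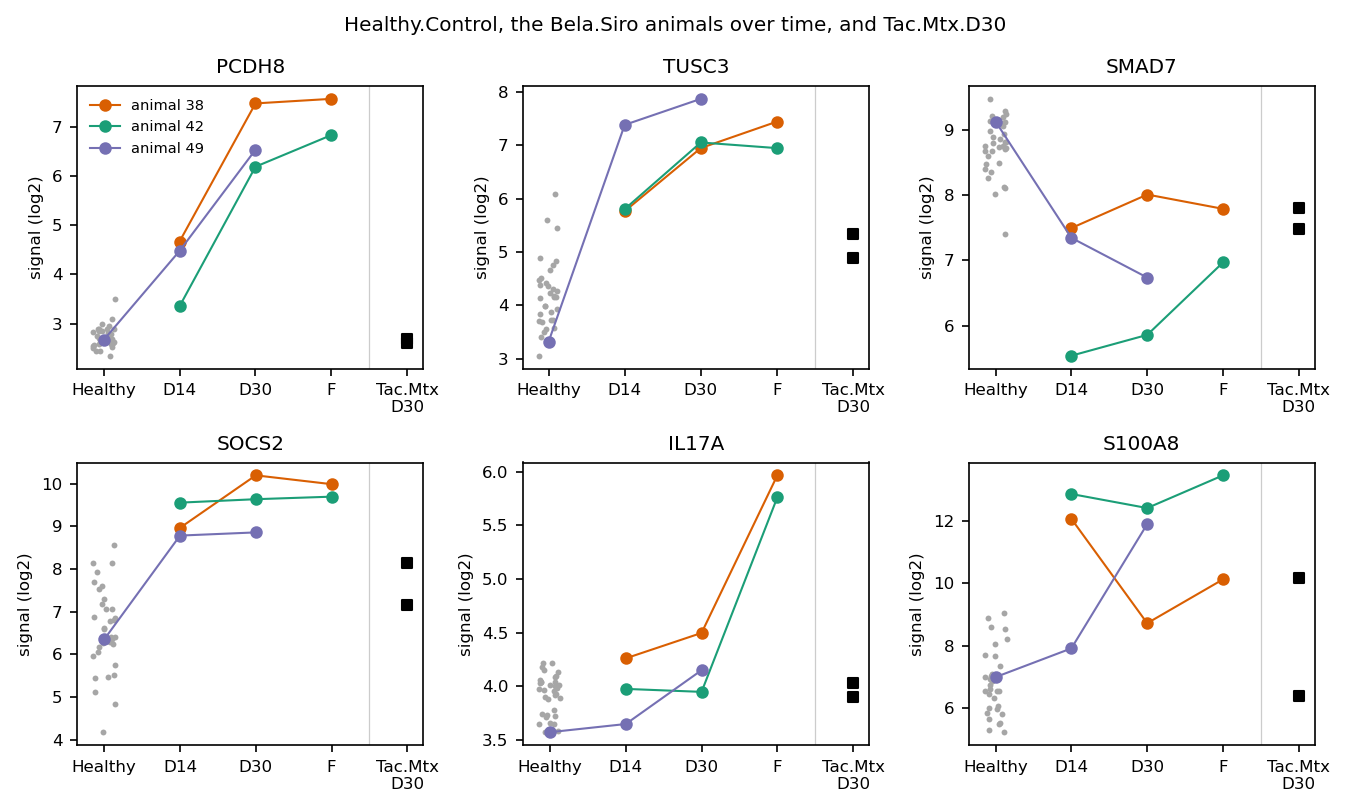
Signals (log2, y axis) of 6 genes are drawn for Healthy.Control in grey, for the Bela.Siro animals 38, 42 and 49 at day 14, day 30 and the final sample with lines joining an animal, and for Tac.Mtx.D30 as black squares. PCDH8 lies higher at day 30 than at day 14 in each animal, and IL17A is high in the 2 final samples.

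Against Tac.Mtx.D30, another regimen at the same nominal day and with the same batch label, 3 genes passed (0.0254%), 2 higher (0.0169%) and 1 lower (0.00847%), while 9.69% had an unadjusted p under 0.05. Tac is read here as tacrolimus, a calcineurin inhibitor, and Mtx as methotrexate. PCDH8 was at 7.47, 6.19 and 6.53 in Bela.Siro.D30, against 2.61 and 2.68 in Tac.Mtx.D30 (measured difference 4.09 ± 0.35, adjusted p 7.09e-14). It was at least 4.24-fold higher with both Tac.Mtx.D30 arrays set to 4.65. PTCHD1, a patched-domain membrane protein, was at 6.38, 7.28 and 5.50, against 4.60 and 4.08 (2.05 ± 0.38, adjusted p 0.00455). TP63, a transcription factor of the p53 family, was at 5.44, 5.76 and 5.62, against 9.15 and 7.80 (-2.87 ± 0.54, adjusted p 0.00455). The groups did not overlap in any of the 3 genes, and the high TP63 signals were those of Tac.Mtx.D30, since Bela.Siro.D30 was within the healthy range of 5.10 to 6.65. PTCHD1 did not pass without animal 42 (1.60) or without Tac.Mtx.D30 animal 19 (1.79), and TP63 did not without Tac.Mtx.D30 animal 20 (-2.20). The mean of the monocyte and myeloid markers was 6.58 to 8.53 in Bela.Siro.D30, against 5.80 and 6.98 in Tac.Mtx.D30, and with it as a covariate the same 3 genes passed. SMAD7 was at -0.77 ± 0.53 (adjusted p 0.654) and TUSC3 at 2.18 ± 0.61 (adjusted p 0.146). Without the animal 38 array, 282 genes passed. The 4 comparisons share the Bela.Siro.D30 arrays and are not independent.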

How the data were processed

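RNA of T cells sorted on CD3 was hybridised to Affymetrix expression arrays of 52865 probe sets after 3′ IVT Plus labelling, per the labels' protocols. The deposited values are log2 signals that the authors made with RMA in affy, per the submitters' processing notes, with no versions. In 61.0% of probe sets an F test between the 4 batches of healthy arrays had a p above 0.95, where chance gives 5%. An adjustment for batch was thus made before deposit; its method is not given in the sources used here, and the spread may be understated. Array medians were 5.12 to 5.31.

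The table of names gives 24969 probe sets 1 gene, 361 several and 27535 none; symbols are those of the platform annotation. The probe set with the highest mean was kept for each of 14133 genes. Tests covered the 11807 genes that 2 or more arrays showed above 4.65, the 40th percentile of the table. They were run in limma 3.58.1 (R 4.3.3) with group and batch as terms over all 81 arrays, 62 residual degrees of freedom, eBayes with trend, 2-sided, Benjamini-Hochberg adjusted p under 0.05. Named genes are the 10 largest rises and falls past the threshold with all 3 arrays on 1 side of the healthy mean (5 in the other comparisons; LOC symbols passed over), PCDH8 and SMAD7, members of 27 function and 8 marker lists, and a fixed set, of which a part is printed. The members, the lists and the rule were chosen with earlier results of these data known. Same-numbered arrays come from the same animal: their deviations from the group means correlated by 0.24 to 0.66 between day 30 and day 14, each highest with its own animal, by 0.45 and 0.50 with the final samples, and by 0.18 with the healthy array of animal 49. The animal was an alternative, as were other filters, probe set rules, batches, fits and left-out arrays; the myeloid covariate was added after the data were seen. On simulated data of Bela.Siro.D30 against Healthy.Control (11807 genes), the test found 45 of 50 changes of -1 (log2). It found 25 of 50 changes of -0.5, and 7 of 177 calls were false. These rates describe the simulated data alone. Whether they hold for the deposited arrays was not tested, so they are not error rates of the calls above. Among those arrays animal 38 stood apart, and leaving out 1 Bela.Siro.D30 array gave 234 to 1485 genes against Healthy.Control. Separate animals gave the arrays of a group.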

Additional observations from a re-analysis of the deposited data

Results flagged for a closer look

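PCDH8 differed between day 30 and day 14 of the same Bela.Siro animals by 2.56 and between Bela.Siro and Tac.Mtx at day 30 by 4.09, each by the test of the difference itself. By the same test PTCHD1 differed from Tac.Mtx.D30 by 2.05 and TP63 by -2.87. Day 30 differed from the final samples in IL17A (-1.66), IL22 (-1.33) and CXCL8 (-2.02), whose day 30 signals lay below or near 4.65. The values of each array stand with these comparisons above.

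Probe sets without a gene name were outside the tests by gene. Of 27535 such probe sets, 259 were higher and 900 lower in Bela.Siro.D30 at an adjusted p under 0.05 over all probe sets (limma). Over all 52865 probe sets, named ones included, 855 were higher and 1631 lower. In 83 of the 259 unnamed higher ones all 3 arrays lay above all 34 healthy arrays. In 93 of the 900 unnamed lower ones all 3 lay below. Among the 11807 genes tested this held for 153 of the 500 rises and 25 of the 348 falls. The largest rise was 3.78 ± 0.44 in the probe set MmugDNA.33486.1.S1_at, with 6.75, 8.28 and 9.11 in animals 38, 42 and 49 at day 30 against 3.47, 4.16 and 5.71 as the healthy lowest, median and highest.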

How the results depend on the processing

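Limits: 3 recipients of 1 batch label were compared, animal 38 stood apart from the others, and the spread comes from all groups. Against Healthy.Control the main count was 848 genes. It was 1297 without batch, 541 in batch 3 alone, 2486 over all probe sets one by one (855 higher, 1631 lower), 957 with probe sets averaged per gene (479 higher, 478 lower), 1024 after renewed quantile normalization (676 higher, 348 lower), 970 with only the groups compared (631 higher, 339 lower) and 103 with the myeloid covariate. Leaving out 1 array gave 234 to 1485 genes against Healthy.Control, 1 to 89 against Bela.Siro.D14, 2 to 150 against Bela.Siro.F (14 without its animal 38) and 2 to 282 against Tac.Mtx.D30 (5 without its animal 19). A group left with 1 array was assumed to vary like the others. The animal as a random replicate block gave 993, 1, 4 and 3 genes in these 4 comparisons. As a fixed block against Bela.Siro.D14 it gave 3.

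Against Bela.Siro.F, 0 genes passed limma's test under the stricter filter and with the mean of the probe sets (505 and 564 at an unadjusted p under 0.05), and 10 over all probe sets. Against Tac.Mtx.D30, 14 passed without batch, 14 with the mean of the probe sets and 10 over all probe sets. With only the groups compared, 0, 0 and 1 passed against Bela.Siro.D14, Bela.Siro.F and Tac.Mtx.D30 (83, 98 and 534 unadjusted), in fits with few residual degrees of freedom. The stricter filter left 10621 genes and the mean of the probe sets 11301. A gene that passed in the main fit may thus be untested there. The cause of these moves was not tested. Signs turned under the mean of the probe sets in SOCS1 (0.37) and IRF7 (0.051), and with the myeloid covariate in VCAN (-0.14) and FCN1 (-0.37). Genes near 0 that did not pass also turned: CD4 (0.00025 without batch, 0.066 after quantile normalization, -0.19 to 0.26 with 1 array left out, 0.072 with the covariate), CD28 (0.011 after quantile normalization, -0.20 to 0.084 with 1 array left out) and FOXP3 (-0.012 without animal 42, 0.063 without animal 38, -0.028 without the healthy array of animal 49, -0.062 with the covariate). Over the left-out arrays GZMB ran from -0.51 to 0.56, CCR7 from -0.29 to 0.061, TCF7 from -0.48 to 0.095, IL23R from -0.25 to 0.60 and PTPN13 from -0.20 to 0.33, each turning without animal 38.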

Other observations

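The next 10 rises, named after their values were seen, held genes of other functions. PTCHD1 rose by 2.03 ± 0.26 (adjusted p 1.94e-07), with 6.38, 7.28 and 5.50 in animals 38, 42 and 49 at day 30 against 4.07, 4.32 and 5.15 as the healthy lowest, median and highest. PGAP1, which trims GPI anchors of new surface proteins, rose by 2.16 ± 0.33 (adjusted p 6.9e-06), and NPDC1 by 2.00 ± 0.32 (adjusted p 1.53e-05). All 3 recipients lay above all healthy animals in these 3 genes, and in the protease inhibitor SERPINE2 (2.27 ± 0.51), the tryptophan-degrading enzyme IDO1 (1.97 ± 0.51) and MOCOS, which activates molybdenum enzymes (1.95 ± 0.40). With the myeloid covariate PTCHD1, PGAP1 and NPDC1 passed, and IDO1 (0.52, adjusted p 0.686), SERPINE2 (0.132), MOCOS (0.082), AQP3 (0.087) and MATN2 (0.101) did not. IDO1 and SERPINE2 did not pass without animal 42 (2.01 and 1.31), nor IDO1 without animal 49 (1.84). AQP3, a glycerol and water channel, rose by 1.90 ± 0.43 (1.64 without animal 42, adjusted p 0.0623), and MATN2 by 1.88 ± 0.49 (1.24 without animal 38, adjusted p 0.144).

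Among the next 10 falls, TENT5A, a poly(A) polymerase, lay below the healthy range in all 3 recipients (-1.32 ± 0.31, adjusted p 0.00462), and without animal 49 it was at -1.01 (adjusted p 0.154). EDEM3, which marks misfolded glycoproteins for degradation, fell by 1.37 ± 0.24 (adjusted p 0.000107) and CCNG2, a cyclin of resting cells and a FOXO target, by 1.40 ± 0.34 (adjusted p 0.00607). EDEM3 did not pass without animal 49 (-0.90) and CCNG2 did not without animal 42 (-1.16) or with the myeloid covariate (adjusted p 0.186). The deviations of the 3 recipients from the healthy mean over all genes tested correlated by 0.61 between animals 42 and 49, by 0.29 between 38 and 42 and by 0.08 between 38 and 49, as a description across genes, which are not independent replicates.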
